A study of Homo sapiens with 6 samples.

Results

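The genes described are 10 fast-responding regulators listed by name: the zinc-finger genes EGR1, EGR2 and EGR3, the orphan nuclear receptor genes NR4A1, NR4A2 and NR4A3, the immediate early response genes IER2, IER3 and IER5, and SRF, the gene of serum response factor. Of the 10, 9 were named in the array's gene table, out of 17687 genes in all, and each of the 9 had 1 probe set. EGR2 was not named there and was not analysed here. The cells were Jurkat, an established human line grown from a T cell acute lymphoblastic leukaemia (T-ALL), on 6 whole-transcript Affymetrix arrays. The suspension group (3 arrays, labelled control) grew in RPMI with 10% fetal bovine serum at 37 °C. The 3D group (3 arrays) was mixed into bovine type I collagen at 1.7 mg/mL in the same medium and serum. The gel set for 1 h, then warm medium covered it for 2 h, so that each culture lasted 3 h. All 6 arrays thus come from 1 serum-fed line, and the labels name no stimulus other than the gel. The labels call the arrays biological replicates 1 to 3 without saying what separated them, so p-values measure the spread between these samples, which may be technical.

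Most of these genes are immediate early genes, whose transcription starts within minutes of a signal without new protein synthesis and then fades. SRF binds a DNA element called the CArG box together with partners of the ELK family, which are switched on by ERK kinases, or of the MRTF family, which sense free actin. EGR1 is a classic target of SRF with ELK proteins, and SRF is a target of its own product. In T cells, signals from the antigen receptor induce EGR and NR4A genes, so that both serve as readouts of receptor signalling.

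The promoters of EGR1 and SRF are shown because they carry the element that joins 2 of the genes measured here. They come from RefSeq (GRCh38.p14) and cover the 250 bases before the start of transcription, 5′ to 3′, with matches in capitals. EGR1 lies at chr5:138465229-138465478 and SRF at chr6:43171019-43171268, both on the plus strand.
EGR1: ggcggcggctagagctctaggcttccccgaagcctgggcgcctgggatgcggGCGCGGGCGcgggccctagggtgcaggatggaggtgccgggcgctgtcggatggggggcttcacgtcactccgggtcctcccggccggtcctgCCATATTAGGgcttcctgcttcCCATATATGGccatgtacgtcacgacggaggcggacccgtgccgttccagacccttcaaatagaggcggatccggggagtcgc
SRF: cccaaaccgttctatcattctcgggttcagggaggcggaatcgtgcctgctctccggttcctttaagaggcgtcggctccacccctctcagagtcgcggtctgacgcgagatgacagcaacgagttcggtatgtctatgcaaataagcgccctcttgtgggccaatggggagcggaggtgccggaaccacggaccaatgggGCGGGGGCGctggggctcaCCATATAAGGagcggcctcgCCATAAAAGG
EGR1 has a match to the EGR site 198 to 190 bases before the start, then CArG boxes at 105 to 96 bases and at 83 to 74 bases. SRF has an EGR site 49 to 41 bases before the start, and CArG boxes at 30 to 21 and at 10 to 1.

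Windows were used for 7 of the 10 genes, with 11 windows in all, and each was searched on both strands for 4 motifs. Any window of the 10 genes on chromosome 8, where EGR3 lies, was left out, while the count over all promoter windows kept that chromosome. The CArG box matched in 3 of the 11 windows, 1 each of EGR1, SRF and EGR2, against 1.16% of all 35116 promoter windows of the same length. The EGR site GCGNGGGCG matched in 2 of the 11 windows, 1 each of EGR1 and SRF, against 8.41% of all windows. The cyclic AMP response element TGACGTCA (1.65% of all windows) and the NR4A site AAAGGTCA (1.05%) matched in 0 of the 11. No match overlapped another in the printed windows. The windows of IER2, IER5, NR4A1 and NR4A3 held no match to the 4, which says only that these letters are not in the windows searched.

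Levels are the log2 values of the deposited table, per probe set, on which a difference of 1 is 2-fold. Values of different genes come from different probes and are not compared with each other. Array medians lay between 5.55 and 5.64, and arrays correlated with each other at 0.971 to 0.991. Of 13 T cell markers measured, 0 had a mean under 6, the limit set for dim probe sets, against 29 of 38 markers of B, myeloid, NK, stromal, endothelial, epithelial or erythroid cells. T cell markers had a median log2 difference of -0.21 (9 lower and 4 higher in 3D), and their summed linear level ran from 12100 to 14000 in suspension and from 11900 to 13800 in 3D. The 38 other markers had a median of -0.07 (25 lower, 13 higher), with sums of 2010 to 2310 and of 1730 to 2160. In bulk RNA, fewer cells of a type and less RNA per cell cannot be told apart, and the part of these markers in the results was not tested.

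The comparison asked which genes differ after 3 h in collagen. None of the 9 genes passed limma at a Benjamini-Hochberg adjusted p under 0.05 over all genes. SRF and IER2 had lower means in 3D by about the same amount, in all 3 same-numbered pairs, and so did NR4A2 at a dim probe set. EGR1, EGR3, NR4A1, NR4A3 and IER5 differed by at most 0.10 log2 in either direction. IER3 had the widest spread of the 9. Over all 17687 genes limma called 0, or 0%, while 1745 genes (9.87%) had an unadjusted p under 0.05. Of the 9 genes 1, SRF, lay under that unadjusted level. The median log2 difference was -0.08 over the 9 genes, 6 lower and 3 higher, beside -0.02 over all genes, of which 52.6% were lower. The smallest adjusted p among the 9 was 0.485 (limma).

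**Figure D1:**
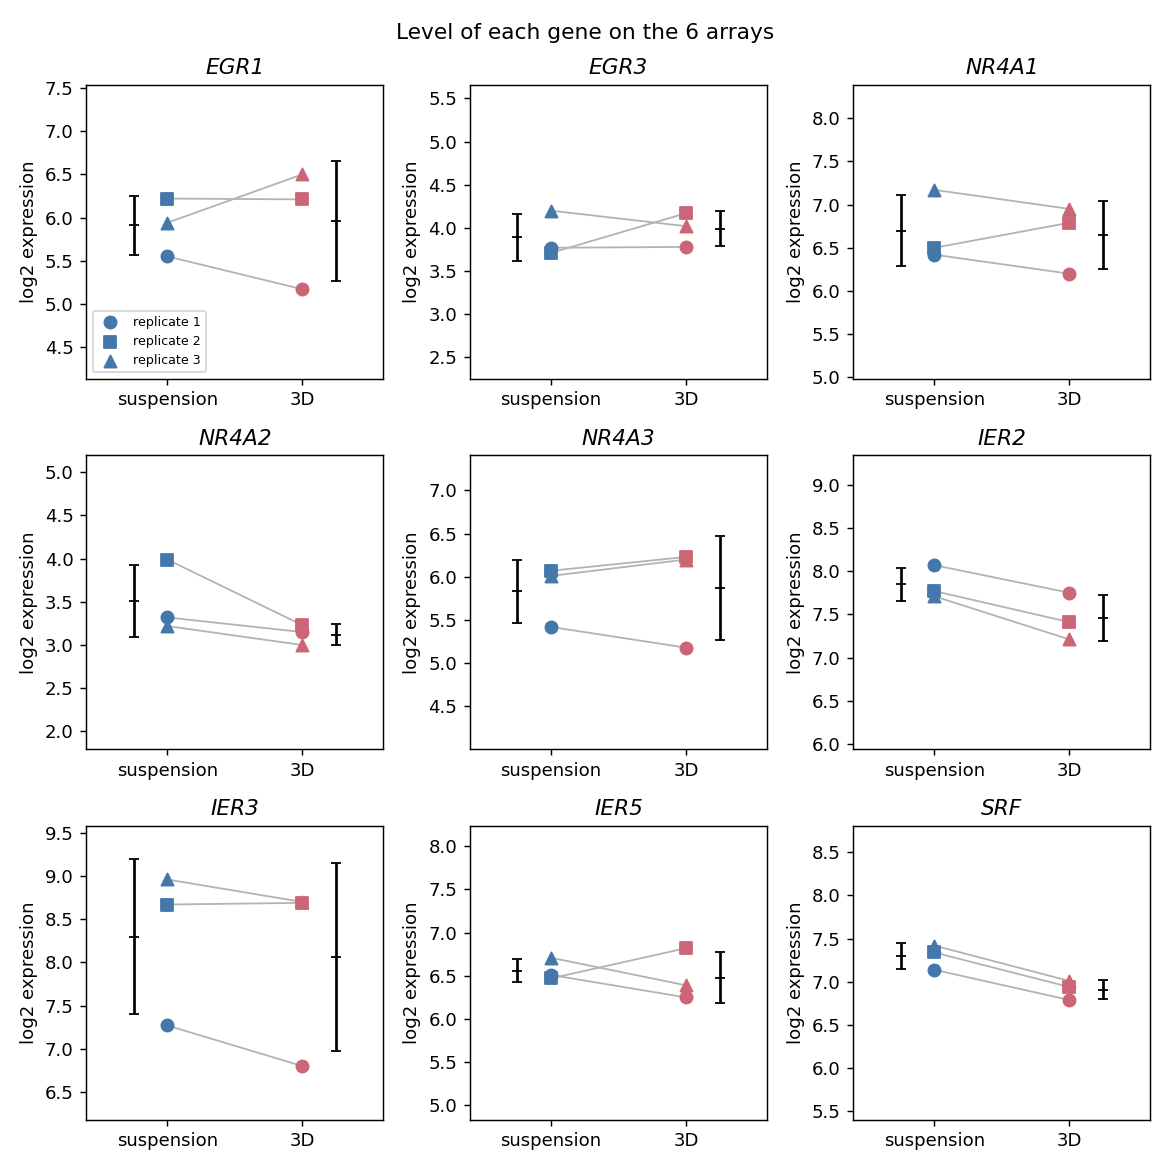
Log2 expression (vertical axis, the same height of scale in each panel) of the 9 genes on the 3 suspension arrays (blue) and the 3 3D arrays (red). Marker shape gives the replicate number, grey lines join arrays of the same number, and black bars give mean ± SD (n = 3). SRF lies lower on all 3 3D arrays, and replicate 1 lies lowest in both groups for EGR1, NR4A1, NR4A3, IER3 and SRF.

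SRF encodes the transcription factor that recruits the ELK and MRTF partners. In the order of replicates 1, 2 and 3, kept throughout, it measured 7.14, 7.34 and 7.42 in suspension against 6.79, 6.94 and 7.01 in 3D. The highest 3D array lay under the lowest suspension array, so the groups did not overlap. SRF was the 1 gene of the 9 that was lower without overlap, beside 8.03% of all genes, and 0 of the 9 were higher without overlap, beside 8.28%. Means were 7.30 ± 0.15 (SD, n = 3) and 6.91 ± 0.11 (SD, n = 3), a log2 difference of -0.39 ± 0.16 (SE), or 0.763 of the suspension level on the linear scale. The adjusted p was 0.485 (limma; unadjusted 0.0331), and 6.8% of all genes had a smaller p. The pairs differed by -0.35, -0.40 and -0.41, closer together than those of any other of the 9 genes. With any single array left out the difference stayed between -0.47 and -0.33.

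Among the IER genes, IER2 encodes a small nuclear regulator of transcription. It measured 8.07, 7.77 and 7.71 in suspension and 7.75, 7.41 and 7.21 in 3D. Each 3D array lay under the suspension array of its number, but the highest 3D array lay above the lowest suspension array. The log2 difference was -0.40 ± 0.19 (SE), or 0.760 of the suspension level, with an adjusted p of 0.518 (limma). When replicate number entered the fit as a block and dim genes were left out, which kept 8342 genes with means of 6 or more, IER2 passed (limma, adjusted p 0.0492), lower by the same -0.40, in a setting where 315 genes were called lower and 884 higher. SRF did not pass there (adjusted p 0.0515, limma). Over the settings with the block the adjusted p of IER2 ran from 0.0492 to 0.566, and over those without it from 0.364 to 0.883.

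IER3, whose protein modulates ERK signalling and cell survival, measured 7.27, 8.67 and 8.96 in suspension and 6.80, 8.69 and 8.70 in 3D. Replicate 1 was low in both groups, at -1.54 log2 in suspension and -1.90 in 3D relative to the mean of replicates 2 and 3, and the groups overlapped. The log2 difference was -0.24 ± 0.52 (SE), with a 95% interval from 0.382-fold to 1.87-fold (limma adjusted p 0.896). IER5, whose protein is linked to the heat shock factor HSF1, measured 6.51, 6.47 and 6.71 in suspension and 6.25, 6.82 and 6.39 in 3D. The 3D arrays lay on both sides of the suspension arrays. Its log2 difference was -0.08 ± 0.18 (SE), with an interval from 0.714-fold to 1.26-fold.

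The EGR genes encode zinc-finger factors that bind GC-rich sites. EGR1 measured 5.55, 6.22 and 5.94 in suspension and 5.17, 6.21 and 6.50 in 3D. The 3D group held both the lowest and the highest of the 6 values. The pairs differed by -0.38, -0.02 and 0.56, so the log2 difference of 0.05 ± 0.31 (SE) averages opposite signs, and its 95% interval ran from 0.646-fold to 1.67-fold (limma adjusted p 0.967). EGR3, which with EGR2 restrains T cell activation, measured 3.77, 3.71 and 4.20 in suspension and 3.78, 4.17 and 4.02 in 3D. Its log2 difference was 0.10 ± 0.19 (SE), with overlapping groups and a mean of 3.94, so that its expression could not be told from the array's floor without detection calls.

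The NR4A genes encode nuclear receptors that act without a known natural ligand and are controlled mainly by how much is made. NR4A1, also called Nur77 and used as a reporter of T cell receptor signals, measured 6.42, 6.50 and 7.17 in suspension and 6.20, 6.79 and 6.95 in 3D. The groups overlapped over most of their range, and the log2 difference was -0.05 ± 0.25 (SE; interval 0.662-fold to 1.41-fold). NR4A3 measured 5.42, 6.07 and 6.01 in suspension and 5.18, 6.23 and 6.20 in 3D, a log2 difference of 0.04 ± 0.28 (SE; interval 0.665-fold to 1.59-fold). Replicate 1 was low in both groups here too, and the mean of 5.85, like that of EGR1 (5.93), lay just under 6. NR4A2 measured 3.32, 3.99 and 3.22 in suspension and 3.15, 3.23 and 3.00 in 3D. Suspension replicate 2 stood above the other 5 arrays. The log2 difference of NR4A2 was -0.39 ± 0.21 (SE; limma adjusted p 0.563), and it was -0.15 without suspension replicate 2. At a mean of 3.32, the expression of NR4A2, like that of EGR3, could not be told from the array's floor without detection calls.

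**Figure D2:**
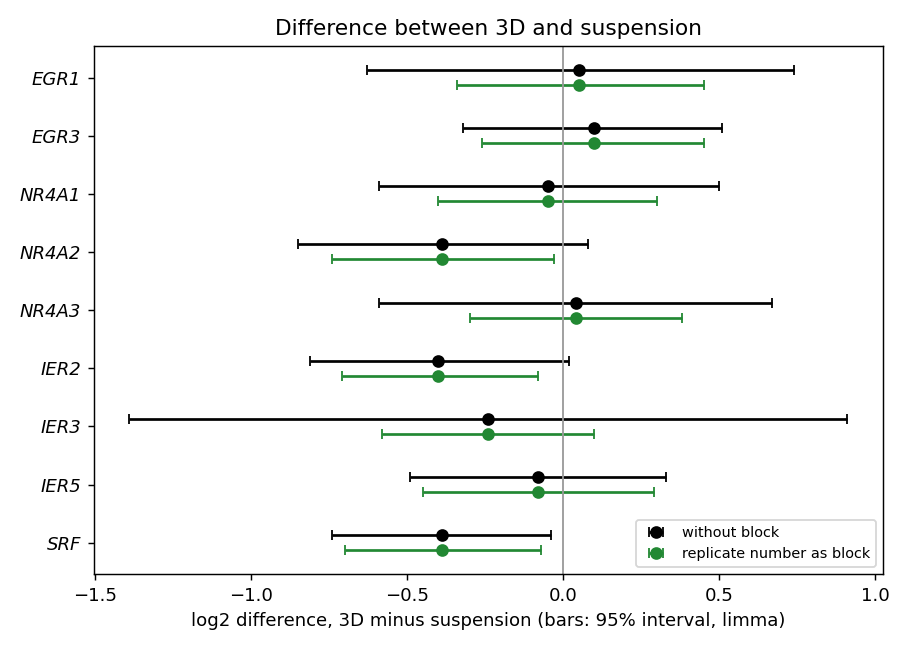
Log2 difference, 3D minus suspension (horizontal axis), of the 9 genes, with 95% intervals from limma without a block (black) and with a block for replicate number (green). The intervals of SRF exclude 0 in both fits, from -0.74 to -0.04 without the block, before any adjustment over genes, and the widest interval without the block is that of IER3.

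Counted over the same-numbered pairs, SRF, IER2 and NR4A2 were lower in 3D in all 3 pairs, and 0 of the 9 were higher in all 3. Of all genes 19.8% were lower in all 3 pairs and 20.3% higher. The median of the 9 was -0.26 in pair 1, 0.02 in pair 2 and -0.22 in pair 3, beside -0.04, 0.05 and -0.03 over all genes. A block for replicate number in limma called 16 of 17687 genes (0.0905%) and 0 of the 9, with the smallest adjusted p at 0.201 for IER2 and 0.204 for SRF. At an unadjusted p under 0.05 that fit held 3 of the 9, SRF, IER2 and NR4A2, all lower, beside 7.36% of all genes lower at that level.

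How much of a gene's variation followed the culture and how much the replicate number was described by splitting its sum of squares over the 6 arrays, a description chosen after the values were seen. For SRF 77.0% went with culture and 22.6% with replicate number. For IER2 the shares were 51.7% and 46.3%. In NR4A2 they were 37.0% and 45.4%. For IER3, NR4A3, NR4A1 and EGR1 the replicate number took 96.4%, 93.8%, 86.0% and 81.1%, and the culture at most 2.11%. The median over all genes was 18.1% for culture and 42.9% for replicate number, which has more degrees of freedom. EGR3 and IER5 left 46.8% and 62.3% to neither. The split thus differed widely among the 9 genes. The spread within groups was wide for some of them: 0.102% of all genes had a larger within-group SD than IER3, 2.23% than EGR1 and 3.73% than NR4A3, but 84.5% had a larger one than SRF.

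**Figure D3:**
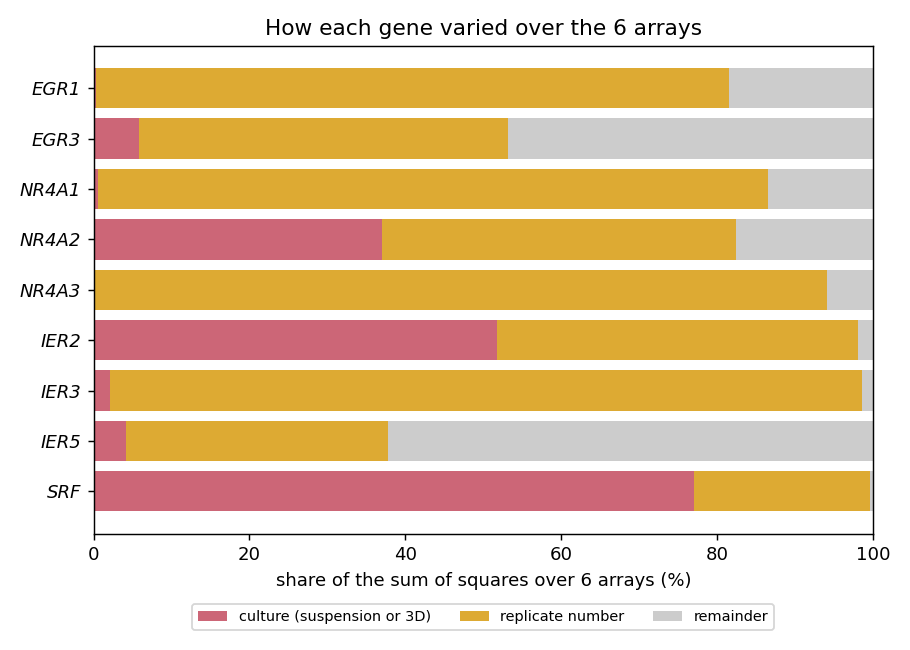
Share of each gene's sum of squares over the 6 arrays (horizontal axis, percent) that goes with culture (red), with replicate number (yellow) and with neither (grey). The red share is largest for SRF (77.0%), and the yellow share is 81.1% or more for EGR1, NR4A1, NR4A3 and IER3.

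Array 3D replicate 1 held the lowest of the 6 values for 6 of the 9 genes (EGR1, NR4A1, NR4A3, IER3, IER5 and SRF), and suspension replicate 3 held the highest for 4. Suspension replicate 1 held the lowest for 0 of the 9. How often each array was lowest or highest over all genes was not counted. Without 3D replicate 1 the log2 differences became 0.45 for EGR1, 0.38 for NR4A3, 0.39 for IER3 and 0.17 for NR4A1, while SRF stayed at -0.33 and IER2 at -0.54. The median of the 9 moved from -0.08 to 0.17 without it, to 0.07 without suspension replicate 3, and to -0.24 without 3D replicate 2. The first principal component over all genes, with 42.8% of the variance, set suspension replicate 1 at 40.4 and 3D replicate 1 at 14.2 against -29.2 to -4.90 for the other 4 arrays. The part of this whole-array difference in the low values of EGR1, NR4A3 and IER3 was not tested.

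**Figure D4:**
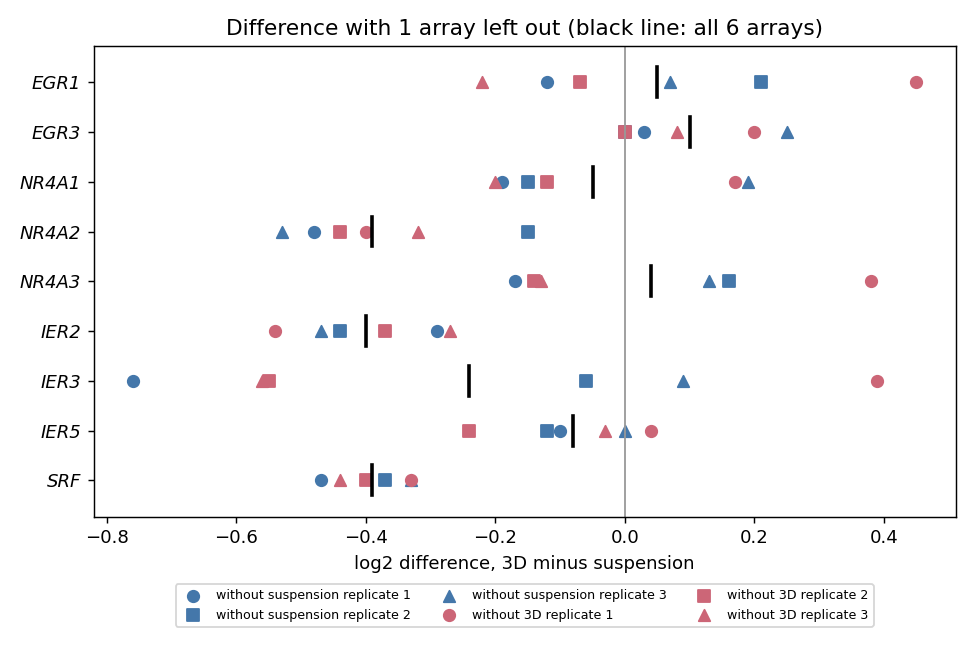
Log2 difference, 3D minus suspension (horizontal axis), of the 9 genes with each of the 6 arrays left out in turn (coloured markers) and with all 6 (black lines). SRF, IER2 and NR4A2 stay below 0 whichever array is left out, while EGR1, NR4A1, NR4A3, IER3 and IER5 lie on both sides of 0.

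Profiles over the 6 arrays were compared by the root mean square difference of log2 values after centring each gene on its own mean. Of 17686 other genes, the nearest to EGR1 was NR4A3 (0.13 log2, against a profile SD of 0.45 for EGR1), followed by PHF19 (0.13). In the other direction EGR1 was number 22 for NR4A3. Nearest to NR4A1 were GJB2 (0.07) and TMEM74 (0.08), nearest to IER2 were PPIF (0.03) and INPPL1 (0.04), and nearest to SRF were OR4A15 and C19orf18 (0.04 each). The nearest of the 9 to SRF was IER5 at 0.23, as large as the profile SD of SRF itself (0.22). EGR1, which carries CArG boxes as SRF does, stood at number 14938 of 17686 from SRF, and SRF at number 4869 from EGR1. Profiles were not scaled, so the distance grows with a gene's profile SD, 0.45 for EGR1 and 0.22 for SRF. These ranks therefore do not tell whether the genes rose and fell together.

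Differences on these arrays varied with gene span and with the number of neighbouring genes. By span in RefSeq, when genes were cut into 5 equal groups, 5 of the 9 fell in the shortest group, whose median log2 difference was -0.09, and 0 in the longest, at 0.06. By number of neighbours within 500 kb, 2 fell in the densest of 5 groups, whose median was -0.11, and 2, NR4A2 and IER5, in the sparsest, at 0.07. After a linear trend on span and neighbour number was taken out of every array, the difference of SRF was -0.31 ± 0.17 (SE; limma adjusted p 0.604), that of IER2 -0.33 ± 0.18 and that of NR4A2 -0.41 ± 0.21. The difference of SRF was no longer under an unadjusted p of 0.05 in that setting (limma, 0.0859).

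Around these genes, 5 lists of pathway genes were described by their counts, and in each list 0 members passed limma over all genes. The lists were chosen with earlier results of these data known, so their counts are descriptions only. Of the partner proteins 11 of 12 were measured, 7 lower and 4 higher in 3D, with a median log2 difference of -0.09. The smallest p belonged to MRTFA, the actin-sensing SRF partner, which measured 7.08, 6.87 and 6.69 in suspension and 6.78, 6.42 and 6.33 in 3D (-0.37 ± 0.18 SE). Each 3D array lay under its same-numbered suspension array, though the groups overlapped. ELK3 and ELK1, the ERK-controlled SRF partners, had differences of 0.19 ± 0.16 and -0.25 ± 0.22. The list of the RAS, ERK and p38 route had 12 of 18 genes measured and a median of -0.17 (7 lower, 5 higher). RPS6KA5, the kinase MSK1 that acts on CREB and histone H3 at immediate early genes, stood at 0.68 ± 0.22 (SE) at a mean of 5.84, and RPS6KA1, the ribosomal S6 kinase RSK1 that acts downstream of ERK, at -0.51 ± 0.19. SOS1, a RAS exchange factor, had 0.37 ± 0.15. The groups did not overlap for these 3 genes, and limma gave adjusted p of 0.402, 0.433 and 0.495. Over the list 5 of the 12 were lower without overlap, beside 8.03% of all genes, and 2 were higher, beside 8.28%. The other 4 lower ones, named after their values were seen, were HRAS (-0.27 ± 0.16 SE), MAP2K2 (-0.23 ± 0.16), MAPK3 (-0.28 ± 0.16) and MAPK7 (-0.32 ± 0.16), which encode a RAS protein and kinases of the ERK cascades.

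Among other immediate early genes 32 of 33 were measured, with 22 lower, 10 higher and a median log2 difference of -0.11. Those with an unadjusted p under 0.05 were 4 lower and 0 higher (limma; 3.97% and 5.9% of all genes). With the replicate block they were 6 lower and 1 higher, beside 1302 lower (7.36%) and 1773 higher of all 17687 genes. JUNB, an AP-1 subunit, measured 5.87, 5.96 and 5.90 in suspension and 5.43, 5.00 and 4.99 in 3D. The 3 suspension arrays lay close together and well above all 3D arrays, with a difference of -0.77 ± 0.17 (SE; limma adjusted p 0.341; 0.0794 with the block) and a mean of 5.52, under 6. The 1 higher gene with the block was CD69, an early activation antigen of T cells, named after its values were seen. Its difference was 0.72 ± 0.54 (SE; limma adjusted p 0.668; 0.0802 with the block), with pairs at 0.91, 0.48 and 0.75. FOSB, another AP-1 subunit, and CSRNP1, a gene of a nuclear protein induced by AXIN1, had -0.38 ± 0.15 and -0.38 ± 0.16 without overlap, at means under 6. Of the 32 genes 4 were lower without overlap, beside 8.03% of all genes, and 0 were higher, beside 8.28%. Cytoskeletal SRF targets, the genes through which SRF controls actin, had 18 of 24 measured, 14 lower and 4 higher, with a median of -0.17. Members at an unadjusted p under 0.05 numbered 0 (limma), and the smallest p belonged to ZYX (-0.24 ± 0.16), CNN2 (-0.30 ± 0.21) and ACTN1 (-0.22 ± 0.15).

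T cell genes linked to EGR2, EGR3 and NR4A, which include anergy and exhaustion genes, had 21 of 22 measured and a median log2 difference of 0.02, with 12 higher and 9 lower. ID3, a known EGR target that restrains E proteins, measured 6.80, 6.62 and 6.57 in suspension and 6.22, 6.37 and 5.75 in 3D. All 3 of its 3D values lay under the suspension values, with a difference of -0.55 ± 0.19 (SE; limma adjusted p 0.412). Over the list 1 of the 21 was lower without overlap, beside 8.03% of all genes, and 0 were higher, beside 8.28%. IL2, the cytokine gene made by activated T cells, had 0.32 ± 0.19 at a mean of 2.80, near the lowest values on the arrays. ITCH, a ubiquitin ligase gene of T cell anergy, had 0.24 ± 0.16.

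**Figure D5:**
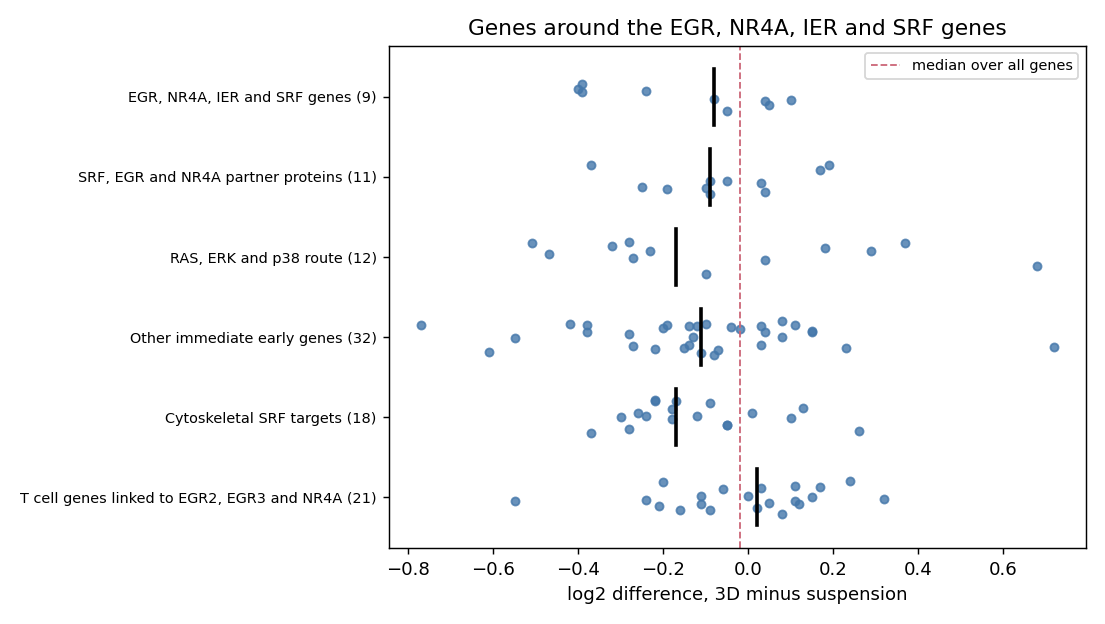
Log2 difference, 3D minus suspension (horizontal axis), of each measured gene (points, spread vertically for legibility) in 6 lists, with the number measured in parentheses, list medians as black lines and the median over all genes (-0.02) dashed. The medians of the ERK route and of cytoskeletal SRF targets are both -0.17, and that of the T cell genes is 0.02.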

How the data were processed

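The authors deposited log2 expression values for each probe set and array, made with RMA and the Transcriptome Analysis Console per the submitters' processing notes. Versions and the genome build are not given in the sources used here. The RMA method gives arrays a common distribution and can shrink differences of dim probe sets, and detection calls were not used here. Of 21448 probe sets, 17709 had 1 gene symbol in the platform table, 3739 had none and 0 had several. All those with a symbol matched RefSeq (GRCh38.p14). For 20 genes with several probe sets the one of highest mean was kept, leaving 17687 genes.

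Groups and replicate numbers came from the titles. Groups were compared with limma 3.58.1 under R 4.3.3 (lmFit, then eBayes; two-sided), p-values were adjusted by Benjamini-Hochberg across the whole gene table, and the fit had no filter and no block (4 residual and 6.79 prior degrees of freedom; 2 and 9.78 with the block). The members and lists were chosen with earlier results of these data known. Named genes were the listed genes, the 3 of smallest p in each of 5 lists, and the 2 nearest profiles to EGR1, NR4A1, IER2 and SRF.

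Deviations from the group means correlated at 0.497, 0.105 and 0.321 over all probe sets between arrays numbered 1, 2 and 3. All lay over 0.1, so same-numbered arrays were treated as pairs. Yet suspension 2 correlated at 0.210 with 3D 3, and 3D 2 at 0.144 with suspension 3, both above the 0.105 of pair 2. Deviations were taken within groups of 3, so a replicate 1 that stands apart in both groups makes replicates 2 and 3 correlate whatever their numbers. The check therefore cannot show that numbers 2 and 3 were paired. Results by pair or block rest on the numbers in the titles. Tested on simulated data over 17687 genes, limma without the block found 7.2% of planted differences of 0.5 log2 and 84.0% of those of 1, with 29.8% and 99.4% with it. The alternatives are named with their effects in the closing section. Plots used matplotlib 3.10.9 under Python 3.11.15.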

Additional observations from a re-analysis of the deposited data

How the results depend on the processing

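Without the replicate block limma called 0 genes in every setting tried: a mean at or above 6, quantile normalization once more, the trend on span and neighbours removed, all probe sets, an intensity trend, no moderation and each array left out (range 0 to 0), with 1031 to 2007 genes at an unadjusted p under 0.05, and 2181 of 21448 probe sets where none were merged to genes. Quantile normalization moved the split of those from 1043 higher and 702 lower to 893 and 900. The median difference of all genes stayed within -0.04 to 0.02. With a replicate block the count was 16, with that block and the trend removed 22, with that block and dim genes left out 1199, and with it and 1 pair left out 21 to 150 (21 without pair 1, 150 without pair 2, 36 without pair 3). Of the 9 genes, 0 were called in all these settings except the block with dim genes left out. There 1 of 5 measured members, IER2, passed (limma, adjusted p 0.0492), beside 1199 of all 8342 genes in that setting. The median of the members was -0.24 over the 5 with a mean at or above 6, with and without the block, and ran from -0.24 to 0.17 with 1 array left out.

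SRF, IER2 and NR4A2 kept their direction in each setting tried, NR4A2 at a dim probe set with a mean of 3.32. With 1 array left out, differences ran from -0.22 to 0.45 for EGR1, from 0.00 to 0.25 for EGR3, from -0.20 to 0.19 for NR4A1, from -0.17 to 0.38 for NR4A3, from -0.76 to 0.39 for IER3 and from -0.24 to 0.04 for IER5. The difference of EGR1 turned to between -0.22 and -0.07 when suspension replicate 1, 3D replicate 2 or 3D replicate 3 was left out, and to -0.20 without pair 3 with the block. That of EGR3 turned to -0.09 without pair 2 with the block. NR4A1 turned to 0.19 without suspension replicate 3, to 0.17 without 3D replicate 1, and to 0.04 with the block without pair 1 or pair 3. NR4A3 turned to -0.01 with the trend removed, with and without the block, to between -0.17 and -0.13 without suspension replicate 1, 3D replicate 2 or 3D replicate 3, and to -0.02 and -0.04 with the block without pairs 2 and 3. IER3 turned to 0.09 without suspension replicate 3 and 0.39 without 3D replicate 1. IER5 turned to 0.04 without 3D replicate 1, and to 0.01 and 0.04 with the block without pairs 1 and 3. The causes were not tested. Besides the values named, the replicate block changed no other call. Precision is limited throughout by the number of arrays.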
